A study of Drosophila melanogaster with 12 samples.

Results

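Stip1, Hsp83, DnaJ-1, Hsc70-4, Hsc70-5, Hsc70Cb, Droj2 and Hsf are 8 genes of the cytosolic and mitochondrial Hsp70 system, Hsp90 and the heat-shock regulator. They were followed in heads of adult *Drosophila melanogaster* through a temperature cycle and a day at constant temperature. The genes were chosen by name, with earlier results of these data known, as 8 of 10864 genes with a probe set of their own. Each has 1 probe set of its own (a set of short probes read as 1 expression value) among 13966 probe sets without controls, and all 8 were among the 11145 that passed a filter on low values. A further 2 probe sets match both Hsc70-4 and Acbp3 and were assigned to neither gene. Hsc70Cb is listed as Hsp110 in the annotation, Stip1 is also known as Hop, and the Hsp83 probe set 143198_at was named through a synonym in a RefSeq gene table, because the platform annotation gave it no name.

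Hsp70 proteins bind unfolded stretches of other proteins in a cycle of ATP use. J-domain proteins bring clients to Hsp70 and start its ATP cleavage, and Hsp110 proteins release the spent nucleotide. Stip1 holds Hsp70 and Hsp90 together while a client passes to Hsp90, which brings kinases, receptors and other clients to their mature form. Heat shock factor (Hsf) is the transcription factor that raises chaperone genes after heat, and in unstressed cells Hsp70 and Hsp90 hold it back.

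The flies were *y w* adults, of a body and eye colour stock with a functional clock, kept in constant darkness throughout. They were raised at 25 °C until early pupal stages and then kept in the thermocycle, through eclosion and the first days of adult life. On the thermocycle day (CA, 6 arrays), the cryophase arrays at 18 °C are CA2, CA6 and CA10, and the thermophase arrays at 25 °C are CA14, CA18 and CA22, the number giving hours since the cold began. On the following day (AA, 6 arrays) all flies stayed at 25 °C, with AA2, AA6 and AA10 in the subjective cryophase and AA14, AA18 and AA22 in the subjective thermophase. Each array measured total RNA from about 100 to 200 heads, and no time point was repeated. The spread behind the p of every comparison of phases or days is therefore that between times of day. Values are RMA expression levels taken to be log2, since their range fits that base and none is named in the sources used here. Precision is limited by the number of arrays.

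The arrays also differed in body tissue. An index of gut, male gland and testis, and muscle transcripts was taken as the mean log2 deviation over 61 marker entries. It was -1.36 on CA10, 1.06 on CA18 and between -0.37 and 0.75 on the other 10 arrays. Cryophase minus thermophase in CA, 28 of 29 gut entries, 17 of 17 male entries and 14 of 15 muscle entries were lower. By contrast, 8 of 8 photoreceptor, 4 of 5 neuron and 3 of 3 glia markers were higher. Among the gut entries, LvpD and Mal-A2 are read from the same probe set, as are LvpH and Mal-A1. Each of these probe sets was counted under both names, in the gut tally and in the index. The fits and correlations with the index use it in this form. By group, the index averaged -0.48 in the CA cryophase (range -1.36 to 0.034), against 0.54 in the CA thermophase (range -0.19 to 1.06). Head tissue was present on every array, with the rhodopsin ninaE at 13.9 to 14.1, although the neuronal marker elav lay at only 3.55 to 4.47. In such bulk samples, fewer cells of a type and less RNA per cell cannot be told apart.

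During the thermocycle day, Stip1 and Hsp83 were low at 18 °C and high at 25 °C. Hsp83, the fly Hsp90, was 2.30-fold lower in the cryophase, Stip1 1.90-fold lower and the J-domain protein DnaJ-1 1.44-fold lower in the group mean. Hsc70Cb, Droj2 and Hsc70-4 were lower by smaller amounts with no overlap between the phases, Hsc70-5 overlapped, and Hsf was the 1 gene of the 8 with a higher mean at 18 °C. Of the 11145 probe sets tested, 0 passed an adjusted p of 0.05 in this comparison, so the named differences are given as values. On the next day, at constant 25 °C, the differences between the same hours lay between -0.30 and 0.050 in these genes, and the change between the days passed no test after adjustment.

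Stip1, the link between the chaperones, measured 6.66, 6.08 and 6.21 at CA2, CA6 and CA10, against 7.23, 7.38 and 7.12 at CA14, CA18 and CA22. All 3 arrays at 18 °C lay below all 3 at 25 °C, with the lowest value in the middle of the cold. On the AA day it measured 6.78, 6.95 and 6.96 in the subjective cryophase, against 7.18, 7.06 and 7.16 in the subjective thermophase. Those groups did not overlap either, but the gap was narrow. The differences were -0.93 (standard error 0.13, 95% interval -1.21 to -0.65, adjusted p = 0.0509 from limma's moderated test) in CA and -0.24 (standard error 0.13, adjusted p = 0.984 from limma) in AA. By group mean, Stip1 stood lowest in the CA cryophase (6.32 ± 0.30, SD, n = 3), followed by the AA subjective cryophase (6.89 ± 0.098), the AA subjective thermophase (7.13 ± 0.063) and the CA thermophase (7.24 ± 0.13). In that order only the last 2 neighbours had overlapping arrays.

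Hsp83 measured 9.27, 9.14 and 9.61 in the CA cryophase, against 10.75, 10.45 and 10.41 in the CA thermophase. It was lowest at CA6 and highest at CA14, and CA14, the first array after warming, stood 1.14 above CA10. In the AA subjective cryophase it measured 9.56, 9.80 and 10.32, against 10.24, 10.22 and 10.14 in the subjective thermophase. AA10 exceeded all 3 arrays of the subjective thermophase, so these groups overlapped, and AA2 and AA6 were the low arrays. The difference was -1.20 in CA (standard error 0.18, 95% interval -1.59 to -0.81, adjusted p = 0.0509 from limma) and -0.30 in AA (standard error 0.18, adjusted p = 0.984 from limma). In order of group mean, Hsp83 had 9.34 ± 0.24 in the CA cryophase, 9.89 ± 0.39 in the AA subjective cryophase, 10.20 ± 0.054 in the AA subjective thermophase and 10.54 ± 0.19 in the CA thermophase (SD, n = 3 each). Of these neighbours, only the last pair did not overlap.

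**Figure D1:**
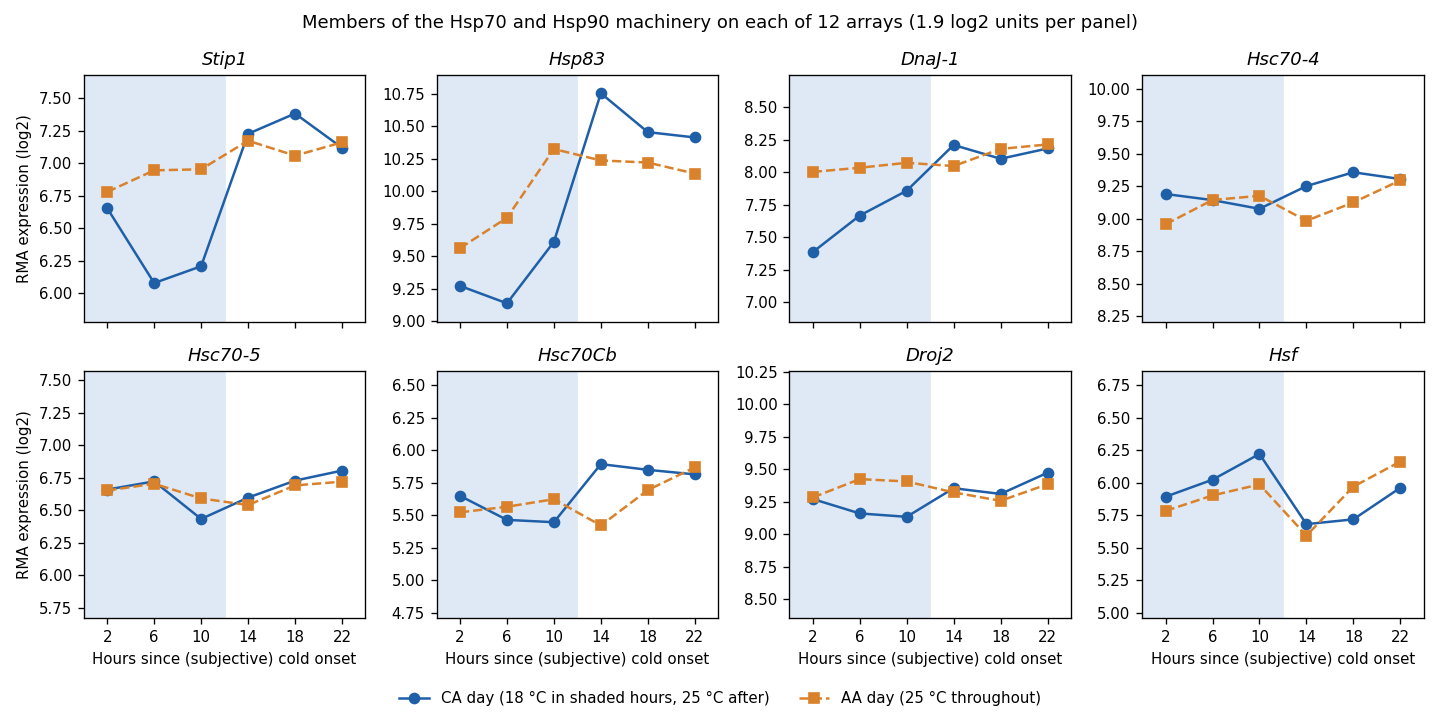
RMA expression (log2) of the 8 genes on each array against hours since the onset of the cold or subjective cold, with CA as circles and AA as squares and the 18 °C hours shaded; every panel spans the same log2 range. Stip1 at CA6 (6.08) and Hsp83 at CA6 (9.14) lie lowest in their panels, and Hsc70-5 stays between 6.43 and 6.80.

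DnaJ-1, a heat-inducible J-domain partner of Hsp70, measured 7.39, 7.67 and 7.86 in the CA cryophase, against 8.21, 8.10 and 8.18 in the CA thermophase. Its lowest value fell at CA2 and each later array of the cold was higher. In AA it measured 8.002, 8.03 and 8.07 in the subjective cryophase, against 8.05, 8.18 and 8.21 in the subjective thermophase. The AA values covered 0.21 in all and the CA values 0.82. The CA difference was -0.53 (standard error 0.099, adjusted p = 0.148 from limma) and the AA difference -0.11 (standard error 0.099).

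Droj2, a second J-domain protein, measured 9.27, 9.16 and 9.13 in the CA cryophase, against 9.35, 9.31 and 9.47 in the CA thermophase. In AA it measured 9.28, 9.42 and 9.41 in the subjective cryophase, against 9.32, 9.26 and 9.39 in the subjective thermophase. The phases were apart in CA and overlapped in AA. Its differences were -0.19 in CA (standard error 0.067, adjusted p = 0.171 from limma) and 0.050 in AA (standard error 0.067).

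Hsc70-4, the most studied constitutive cytosolic Hsp70 of the fly, measured 9.19, 9.14 and 9.08 in the CA cryophase, against 9.25, 9.36 and 9.31 in the CA thermophase. In AA it measured 8.96, 9.14 and 9.18 in the subjective cryophase, against 8.98, 9.13 and 9.30 in the subjective thermophase. The CA groups did not overlap but lay close, with a difference of -0.17 (standard error 0.084, adjusted p = 0.266 from limma). The AA groups overlapped almost fully, with a difference of -0.042 (standard error 0.084). The 2 probe sets shared with Acbp3 ranged more widely, from 5.99 at CA10 to 7.93 at CA18 in 148310_i_at and from 5.88 at CA10 to 6.72 at AA14 in 148311_f_at, and their phases overlapped on both days.

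Hsc70Cb, the Hsp110 exchange factor, measured 5.65, 5.47 and 5.45 in the CA cryophase, against 5.89, 5.85 and 5.82 in the CA thermophase. In AA it measured 5.52, 5.57 and 5.62 in the subjective cryophase, against 5.42, 5.69 and 5.87 in the subjective thermophase. Its 3 warm CA arrays were close together and above all cold ones, while in AA the single array AA14 was the lowest of the 12. The difference was -0.33 in CA (standard error 0.099, adjusted p = 0.169 from limma) and -0.091 in AA (standard error 0.099).

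Hsc70-5, the mitochondrial Hsp70, had a standard deviation of 0.10 over the 12 arrays, against 0.40 for Stip1 and 0.51 for Hsp83. It measured 6.66, 6.72 and 6.43 in the CA cryophase, against 6.60, 6.73 and 6.80 in the CA thermophase. CA10 alone was low, and the groups overlapped. In AA it measured 6.65, 6.70 and 6.59 in the subjective cryophase, against 6.54, 6.69 and 6.72 in the subjective thermophase. The differences were -0.11 in CA (standard error 0.086, 95% interval -0.29 to 0.082) and -0.0013 in AA (standard error 0.086, 95% interval -0.19 to 0.19).

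Hsf measured 5.89, 6.02 and 6.22 in the CA cryophase, against 5.68, 5.72 and 5.96 in the CA thermophase. The groups overlapped, because CA22 exceeded CA2. In AA it measured 5.78, 5.90 and 5.99 in the subjective cryophase, against 5.59, 5.97 and 6.16 in the subjective thermophase. The difference was 0.26 in CA (standard error 0.14, adjusted p = 0.291 from limma) and -0.018 in AA (standard error 0.14). Hsf moved against the body-tissue index, with Pearson's r of -0.81 over the 12 arrays, and its CA difference was -0.015 with the index as a covariate.

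**Figure D2:**
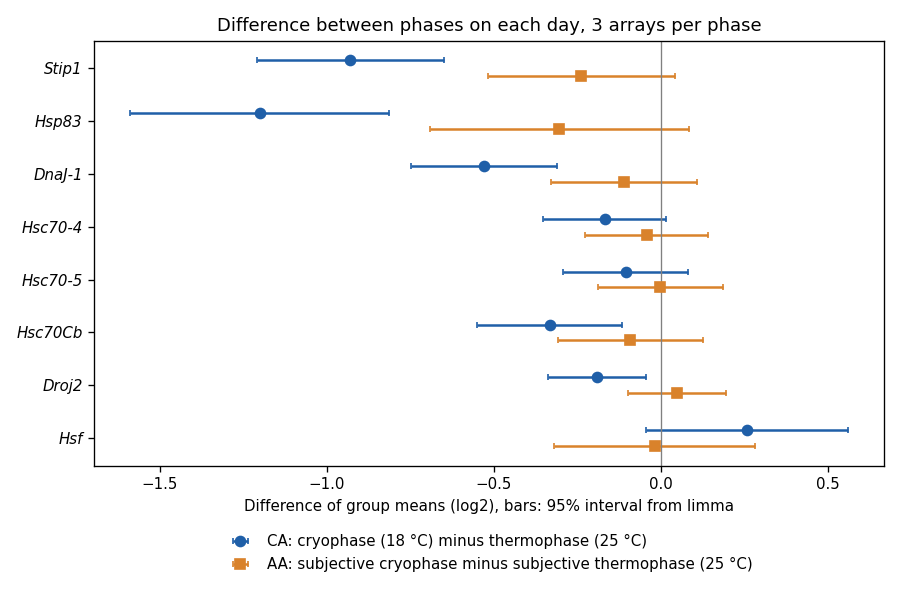
Difference of group means (log2) between cryophase and thermophase in CA (circles) and between their subjective counterparts in AA (squares) for each gene, with 95% intervals from limma, 3 arrays per phase. The CA intervals of Stip1, Hsp83, DnaJ-1, Hsc70Cb and Droj2 lie below 0, and all 8 AA intervals cross 0.

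Counted over the 8 genes, 7 had a negative difference in CA, as did 34.6% of all probe sets, and their median was -0.26 against 0.051 over all probe sets. In 6 of 8 (Stip1, Hsp83, DnaJ-1, Hsc70-4, Hsc70Cb and Droj2) all cold arrays lay below all warm ones, against 5.08% of all probe sets. At an adjusted p of 0.05, 0 of 8 passed in limma (0% of all probe sets), at an adjusted p of 0.2 there were 5 (15.9%) and at an unadjusted p of 0.05 also 5 (21.4%). Ordered by p among 11145 probe sets, Stip1 stood at place 2, Hsp83 at 5 and DnaJ-1 at 15, with Hsc70-4 at 2931, Hsf at 3289 and Hsc70-5 at 5741. Since the 8 genes were chosen with earlier results of these data known, their shares and places describe them and are not a test. Stip1, Hsp83, DnaJ-1 and Hsc70Cb are also listed under protein folding in the study's own selection of rhythmic transcripts, made on data that include these arrays, so their direction is not independent evidence. Without CA10 and CA18, the arrays at the ends of the body-tissue index, the CA differences were -0.81 for Stip1, -1.38 for Hsp83 and -0.67 for DnaJ-1. In that fit 0 of 8 passed, where 1 of 11145 probe sets did. The adjusted p from limma was 0.590 for Stip1 and 0.253 for Hsp83 and for DnaJ-1. With the index as a covariate the differences were -0.80 for Stip1, -1.32 for Hsp83 and -0.70 for DnaJ-1. Of the 8, DnaJ-1 alone then passed (adjusted p = 0.0417 from limma), where 2 of 11145 probe sets did. Stip1 was at 0.226 and Hsp83 at 0.0953 from limma. The call at 0.05 turned on the setting for Stip1 and Hsp83. Both passed with no filter, at 0.0430 from limma, where 9 of 13966 probe sets did. Without CA22 the number was 3 (Stip1, Hsp83 and DnaJ-1), without CA2 it was 1 (Stip1) and without AA10 it was 1 (Hsp83). Over all probe sets, 34 of 11145 passed without CA2, and the numbers without CA22 or AA10 are not given here.

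In AA, 7 of 8 differences were again negative, a share to be read against 41.7% of all probe sets, with a median of -0.067 against 0.017. Stip1 alone had no overlap (3.71% of all probe sets were apart in that direction), and 0 of 8 passed at an adjusted p of 0.05 (0%) or at an unadjusted p of 0.05 (2.93%) in limma. The difference between the CA and the AA contrast was tested directly. It was -0.69 for Stip1 (standard error 0.18), -0.90 for Hsp83 (standard error 0.25), -0.42 for DnaJ-1 (standard error 0.14) and -0.24 for Droj2 (standard error 0.095). These 4 passed an unadjusted p of 0.05 (3.60% of all probe sets did), and 0 of 8 passed after adjustment (0%), where all 8 had an adjusted p of 0.933 from limma.

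At matched hours the comparison of the days sets 18 °C against 25 °C in the first part of the day and 25 °C against 25 °C in the second. Day and temperature cannot be told apart in the first. At hours 2, 6 and 10, CA minus AA was -0.13, -0.87 and -0.75 for Stip1, and the group difference was -0.58 (standard error 0.13, adjusted p = 0.565 from limma). For Hsp83 the hourly differences were -0.29, -0.66 and -0.71, with a group difference of -0.55 (standard error 0.18, adjusted p = 0.696 from limma). Both genes were closest to the AA day at hour 2. DnaJ-1 ran the other way, with -0.62, -0.37 and -0.22 at hours 2, 6 and 10 and a group difference of -0.40 (standard error 0.099, adjusted p = 0.569 from limma).

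Droj2 was at -0.012, -0.26 and -0.27 at these hours (group difference -0.18, standard error 0.067). For Hsc70-4, Hsc70-5, Hsc70Cb and Hsf the group differences were 0.044, -0.044, -0.050 and 0.15, with 95% intervals from limma that include 0. Of the 8, 6 were lower in CA (49.6% of all probe sets), and Stip1, DnaJ-1 and Droj2 did not overlap (6.33%). At an unadjusted p of 0.05, 4 of 8 passed (6.01%), namely Stip1, Hsp83, DnaJ-1 and Droj2, and 0 after adjustment in limma (0%). Without CA2, the first array of the cold, Stip1 passed with -0.75 (adjusted p = 0.0199 from limma), among 7 of 11145 probe sets that did.

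In the second part of the day, with both days at 25 °C, Hsp83 was higher in the CA thermophase than in the AA subjective thermophase on every array, at 0.52, 0.23 and 0.28 above AA at hours 14, 18 and 22. The group difference was 0.34 (standard error 0.18, 95% interval -0.044 to 0.73, adjusted p = 0.747 from limma), and 2.82% of all probe sets were apart in that direction. Hsc70Cb stood 0.47 above AA at hour 14 and 0.16 above at hour 18, and the difference was -0.054 at hour 22. For Stip1 the group difference was 0.11 (95% interval -0.17 to 0.39) and for DnaJ-1 0.018 (95% interval -0.20 to 0.24). Of the 8, only Hsf was lower (60.1% of all probe sets were), with -0.12. None of the 8 passed, with 0 at an unadjusted p of 0.05 (6.07%) and 0 after adjustment in limma (0%).

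**Figure D3:**
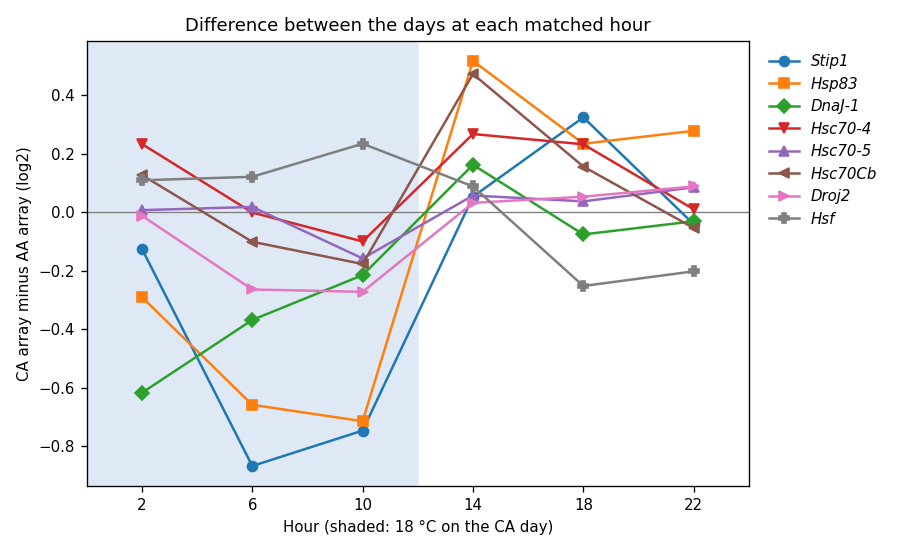
CA array minus AA array (log2) at each matched hour for the 8 genes, with the hours at 18 °C on the CA day shaded; each point is a difference of 2 single arrays. Stip1 reaches -0.87 at hour 6, DnaJ-1 -0.62 at hour 2, and Hsp83 lies at 0.52 at hour 14.

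A 24-h cosine was fitted to each day, its amplitude being the distance from the middle of the curve to its peak. The spread behind its p is that of single arrays around the fitted curves. Stip1 and Hsp83 had 24-h cosines in CA that passed the test, and the other 6 did not. Stip1 had an amplitude of 0.69 (standard error 0.077) with a peak at CA18.5 (adjusted p = 0.0184, limma's moderated F test). Hsp83 peaked at CA17.1 with an amplitude of 0.84 (standard error 0.11, adjusted p = 0.0386 from limma), a 3.22-fold range over the day. These were 2 of 8, against 0.368% of all probe sets, and 3 of 8 passed at an adjusted p of 0.2 (7.42%), DnaJ-1 being the third with an amplitude of 0.37 and a peak at CA16.5.

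The smaller amplitudes were 0.23 for Hsc70Cb (peak CA18.6), 0.14 for Droj2 (CA20.1), 0.13 for Hsc70-4 (CA19.5) and 0.14 for Hsc70-5 (CA22.5). Hsf peaked in the cold, at CA6.30, with 0.18 (standard error 0.10). The median amplitude of the 8 was 0.21 in CA, against 0.10 over all probe sets, and 0.096 in AA, against 0.069. Both calls depended on single arrays. Without CA2, 1 of 8 (Stip1) passed, where 15 of 11145 probe sets did. Without CA6, without CA18 or without AA6, 0 of 8 passed, and without CA22 there were 3. The numbers over all probe sets without CA6, CA18, AA6 or CA22 are not given here. With the body-tissue index as a covariate there were also 3, DnaJ-1 being the third, where 181 of 11145 probe sets passed. Without both CA10 and CA18 the adjusted p was 0.120 for Stip1 and 0.0709 for Hsp83 (limma), with amplitudes of 0.69 and 1.02. In that fit 2 of 11145 probe sets passed, against 41 with all arrays and no covariate. Hsp83 also lost the call when any of CA2, CA14, AA2, AA10, AA14, AA18 and AA22 was left out, and with quantile normalization.

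In AA, 0 of 8 cosines passed after adjustment in limma (0% of all probe sets). At an unadjusted p of 0.05 there was 1 (3.52%), Hsp83, with an amplitude of 0.33 (standard error 0.11) and a peak at AA14.8. The cosines of the 2 days differed at an unadjusted p of 0.05 for 3 of 8 (3.71% of all probe sets), namely Stip1, Hsp83 and Droj2, and for 0 after adjustment (0%), with an adjusted p of 0.949 from limma for all 8. The study's measure of daily rhythm is F24, the 24-h spectral power, which it took over time courses appended to each other. Here F24 is the share of a profile's variance in its 24-h Fourier component over the 6 arrays of a single day. The values and p-values are therefore not those of the study. In CA it was 0.941 for Stip1, 0.917 for Hsc70-4 and 0.907 for Hsp83, with exact one-sided permutation p-values over the 60 distinct orders of the 6 arrays of 0.05, 0.0667 and 0.0833, where the smallest possible is 0.0167. The other members had 0.840 (Hsc70Cb), 0.754 (Droj2), 0.750 (DnaJ-1), 0.656 (Hsc70-5) and 0.486 (Hsf), and the median over all probe sets was 0.534. In AA the highest of the 8 was Hsp83 with 0.746 (exact permutation p = 0.15) and the lowest Hsc70-4 with 0.039, around a median over all probe sets of 0.412.

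The profiles of the 8 genes were not all alike. Over the 12 arrays, which share 1 RMA run and the same 4 phases, Pearson's r was 0.848 between Stip1 and Hsp83, 0.838 between Hsp83 and DnaJ-1 and 0.854 between Hsc70-4 and Hsc70Cb. Between Hsp83 and Hsc70-5 it was 0.067, and Hsf had negative values with Stip1 (-0.540) and Hsp83 (-0.370). Among 9977 named probe sets, the 5 most like Stip1 by Pearson's r were Lsd-1 (0.932), a perilipin of lipid droplets, the sodium and proton exchanger Nha1 (0.923), mora (0.918), the Polycomb group gene esc (0.914) and CCT7 (0.908), a chaperonin subunit. In the order over all probe sets tested, with or without a gene name, CCT7 came at place 6, Hsp83 at 18, Droj2 at 138, DnaJ-1 at 181 and Hsc70Cb at 299. In mora, the values were 5.65, 5.20 and 5.33 in the CA cryophase, against 6.08, 5.94 and 5.73 in the CA thermophase, with the low point at CA6 as in Stip1. The study's selection of rhythmic transcripts also holds mora, under the name CHORD.

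With the body-tissue index, r over the 12 arrays was 0.658 for Stip1, 0.489 for Hsp83, 0.447 for Hsc70Cb, 0.359 for Hsc70-5, 0.286 for Hsc70-4, 0.246 for DnaJ-1 and 0.228 for Droj2. On CA2, CA6, CA10, CA14, CA18 and CA22 the index was 0.034, -0.11, -1.36, 0.75, 1.06 and -0.19. On these single arrays Stip1 measured 6.66, 6.08, 6.21, 7.23, 7.38 and 7.12. Hsp83 measured 9.27, 9.14, 9.61, 10.75, 10.45 and 10.41 on them. The part of body tissue in the differences of the 8 genes was not tested beyond the fit with the index as a covariate.

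**Figure D4:**
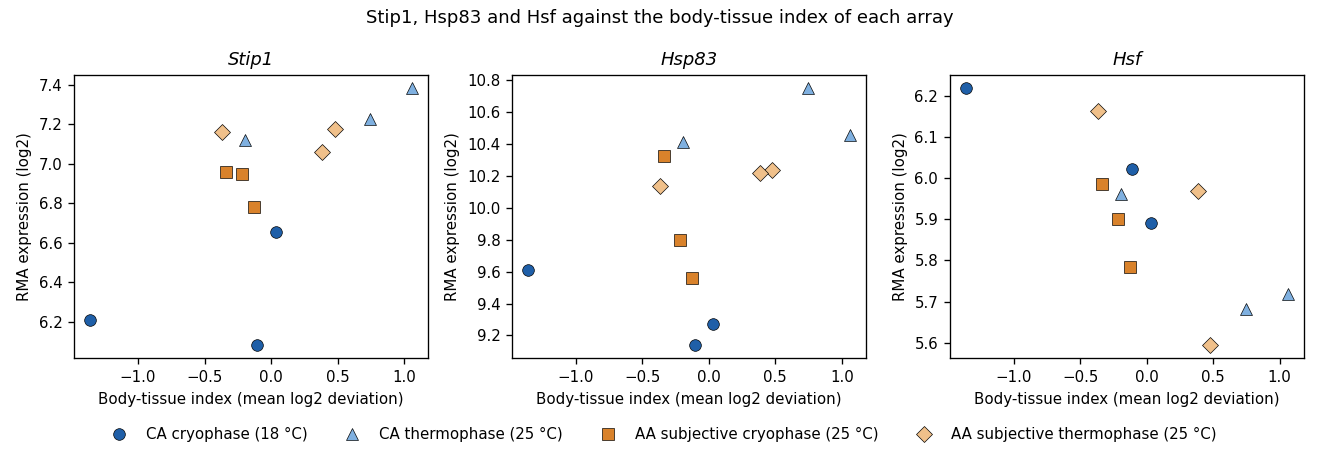
Expression (log2) of Stip1, Hsp83 and Hsf against the body-tissue index (mean log2 deviation) of each of the 12 arrays, with a symbol for each group. Over the 12 arrays r with the index was 0.658 for Stip1, 0.489 for Hsp83 and -0.81 for Hsf.

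Other chaperone genes were described from 6 lists that held 76 distinct measured genes, with 54 lower (34.6% of all probe sets were) and 22 higher in CA and a median difference of -0.10. At an adjusted p of 0.05, 0 passed in limma, at 0.2 there were 21, all of them lower (15.9% of all probe sets passed in either direction), and at an unadjusted p of 0.05 there were 25 (21.4%). In 19 all cold arrays lay below all warm ones (5.08%), and in 2 above them (12.6%). In AA, 42 were lower (41.7% of all probe sets were) and 34 higher, and 0 passed at an unadjusted p of 0.05 (2.93%). From each list the 3 genes with the largest CA difference are named. At least CG1416, mora (there as CHORD), CCT5 and CCT8 (there as CG8258) of them are also in the study's selection of rhythmic transcripts. That selection was made on data that include these arrays. Their direction is not independent evidence.

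Among 15 Hsp90 partners, 10 were lower in CA (median -0.10, 34.6% of all probe sets lower), 5 of them with no overlap (5.08%), and 4 reached an adjusted p of 0.2 (15.9%). The largest differences were those of CG1416, the fly counterpart of the Hsp90 activator Aha1 (-0.59, standard error 0.14), mora, which binds Hsp90 through its CHORD domains (-0.53, standard error 0.12), and Sgt1, a further Hsp90 co-chaperone (-0.41, standard error 0.086). Their r with the body-tissue index was 0.692, 0.652 and 0.499 in this order. Sgt1 measured 5.54, 5.30 and 5.18 in the CA cryophase, against 5.74, 5.75 and 5.77 in the CA thermophase, and on the AA day it stayed between 5.76 and 5.92. Its difference at hours 2 to 10 between CA and AA was -0.53 (standard error 0.086, adjusted p = 0.319 from limma). In AA the 3 genes differed by 0.043, -0.055 and 0.040.

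Of 9 measured genes of other Hsp70 family members and exchange factors, 8 were lower in CA (median -0.22, 34.6% of all probe sets lower) and 3 had no overlap (5.08%). Hsc70-2 (-0.80, standard error 0.27) and Hsc70-1 (-0.42, standard error 0.15) overlapped between the phases and followed the body-tissue index with r of 0.951 and 0.866. Grp170, the Hsp110 relative of the endoplasmic reticulum, did not overlap (-0.42, standard error 0.10, r with the index 0.646). The other J-domain proteins were divided, with 11 of 23 lower (34.6% of all probe sets lower), 12 higher and a median of 0.019. Those named were CG8476 (-0.81, r with the index 0.929), P58IPK of the endoplasmic reticulum (-0.51, standard error 0.12, r 0.586, no overlap) and CG8531 (-0.34, r 0.908).

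In the mitochondrial folding list 9 of 11 were lower (median -0.14, 34.6% of all probe sets lower). The largest differences lay in genes that followed the index, CG9920 (-1.62, r 0.989), Hsp60C (-1.28, r 0.964) and Hsp60B, a chaperonin needed for male fertility (-0.91, r 0.972). None of the 11 had CA phases apart (5.08% of all probe sets were apart with the cold lower, 12.6% with it higher). Of the 6 small heat-shock proteins measured, 5 were lower (median -0.23, 34.6% of all probe sets lower), with Hsp26 (-0.36, r 0.377, no overlap), CG4461 (-0.35, r 0.967) and l(2)efl (-0.25, r 0.691) in front. In the chaperonin CCT and prefoldin list, 12 of 14 were lower (median -0.12, 34.6% of all probe sets lower) and 6 had no overlap (5.08%). CCT5 (-0.31, r 0.657), CCT7 (-0.27, r 0.718) and CCT8 (-0.23, r 0.357), subunits of the ring that folds actin and tubulin, had the largest differences. In AA they differed by -0.13, -0.039 and 0.0077. The part of body tissue in the list differences was not tested.

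**Figure D5:**
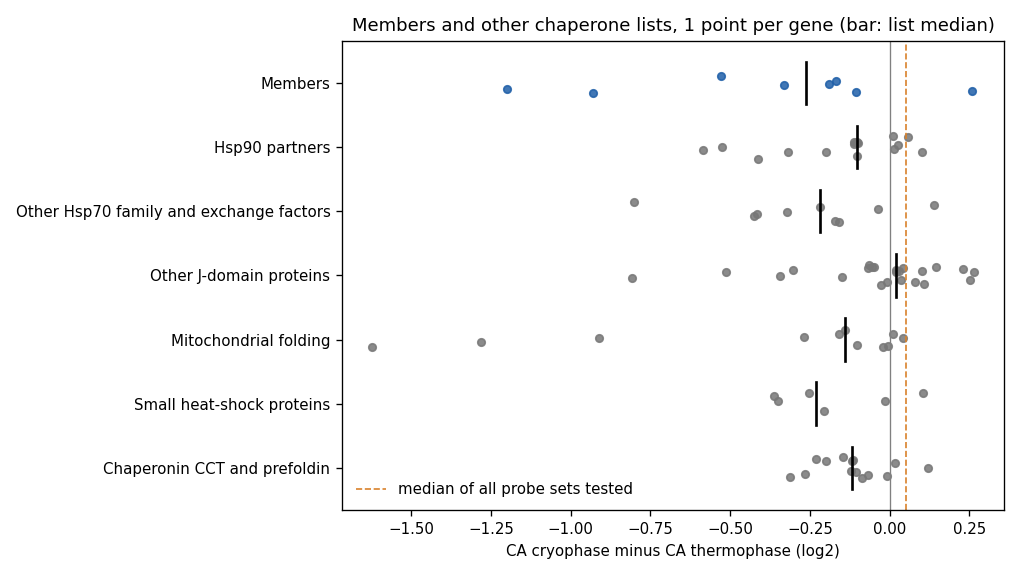
CA cryophase minus CA thermophase (log2) for the 8 genes and for the measured genes of 6 chaperone lists, 1 point per gene, with the median of each list as a bar and the median of all probe sets tested as a dashed line. The median of the 8 genes lies at -0.26, that of the other J-domain proteins at 0.019, and the farthest point left is CG9920 at -1.62.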

How the data were processed

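RNA of *y w* heads was hybridised to 12 Affymetrix Drosophila Genome arrays, with 4 h between them. The authors made the deposited log2 values with RMA (background correction, normalization across arrays, 1 value per probe set), and its version is not given in the sources used here. Samples were grouped by the day and hour in their labels. RMA scales arrays to each other, so a change shared by most transcripts would not show.

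Of 14010 probe sets, 12443 have 1 gene in the platform annotation, 327 several and 1196 none, with 44 controls apart. From RefSeq synonyms 20 were named, Hsp83 among them, and where both tables name a probe set they did so alike for 113 and differently for 0. Probe sets with more than 6 of 12 values above the 20th percentile of their array were kept, which left 11145. The group model (4 groups of 3 arrays, 8 residual degrees of freedom) and the cosine model (6 residual degrees of freedom) were fitted over all of them with limma 3.58.1 in R 4.3.3, with Benjamini-Hochberg adjustment and a threshold of 0.05. Both models were also run on simulated data with independent noise for each probe set, without shifts shared between probe sets. The outcome is not given here. F24 was compared with all 60 distinct orders of a day's arrays. Python 3.11.15 with matplotlib 3.10.9 made the figures.

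The 8 genes and the lists (Hsp90 partners, other Hsp70 family and exchange factors, other J-domain proteins, mitochondrial folding, small heat-shock proteins, chaperonin CCT and prefoldin) were chosen with earlier results of these data known. Named were all 8 genes, the 3 largest CA differences of each list and the 5 named probe sets most like Stip1. In the lists, a gene with more than 1 probe set is given by that of the highest mean. Alternatives were other filters, a trended robust prior, other scalings, an adjusted p under 0.2, 1 row per gene, the body-tissue index as a covariate, fits without CA10 and CA18, each day alone, 18 °C against all 25 °C arrays, the hour as a block and each array left out. No sequences or positions are given.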

Additional observations from a re-analysis of the deposited data

How the results depend on the processing

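In the CA contrast, where 0 of the 8 genes passed an adjusted p of 0.05, 2 (Stip1 and Hsp83) passed with no filter, with a filter on a mean above 5, with a trended and robust prior and with a common array median. With an adjusted p under 0.2 there were 5 (15.9% of all probe sets), and with the body-tissue index as a covariate 1, DnaJ-1. With each array left out in turn the number lay between 0 and 3. It was 3 without CA22, and 1 without CA2 and without AA10. Without CA10 and CA18, 0 of the 8 passed, where 1 of 11145 probe sets did. Over all probe sets, 9 of 13966 passed with no filter, 2 of 11145 with the index and 34 of 11145 without CA2. For the mean filter, the trended robust prior, the common median and the fits without CA22 or AA10 these numbers are not given here. For the CA cosine, 2 genes passed, 3 with the body-tissue index as a covariate (Stip1, Hsp83 and DnaJ-1), 3 with an adjusted p under 0.2, 1 with quantile normalization, 0 without CA10 and CA18, 0 with each day alone and between 0 and 3 with each array left out. Of all 11145 probe sets, 41 passed for the CA cosine in the main fit, 827 at an adjusted p under 0.2 and 181 with the index. It was 15 without CA2 and 2 without CA10 and CA18, and the numbers in the other alternatives are not given here. For the CA cryophase against the AA subjective cryophase the count was between 0 and 1 with each array left out. Without CA2 it was 1, where 7 of 11145 probe sets passed. Counts for the AA contrast, the difference of contrasts, the CA thermophase against the AA subjective thermophase, the AA cosine and the difference of cosines stayed at 0 in all alternatives run.

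Over 23 alternatives the CA difference ran from -1.10 to -0.78 for Stip1, from -1.38 to -0.87 for Hsp83 and from -0.70 to -0.40 for DnaJ-1, and it stayed negative in 23 of 23 for each gene but Hsf. Some differences changed sign. Hsf in CA was -0.015 with the index, against 0.26 without it, Hsc70-5 in AA 0.0088 with quantile normalization and 0.012 with the index, and Hsc70-5 between the cold hours of CA and AA 0.042 without CA10 and CA18. With each array left out in turn, some differences crossed 0. In AA they ran from -0.057 to 0.034 for Hsc70-5, from -0.12 to 0.038 for Hsc70-4, from -0.21 to 0.013 for Hsc70Cb and from -0.18 to 0.11 for Hsf. In the cold hours of CA minus AA they ran from -0.10 to 0.042 for Hsc70-5 and from -0.024 to 0.086 for Hsc70-4, and in the warm hours from -0.031 to 0.052 for DnaJ-1 and from -0.28 to 0.0052 for Hsf. The cause was not tested. The labels number no replicates, but each CA hour has an AA hour, and with the hour as a block the counts for the difference of contrasts and for the comparisons of the days stayed at 0.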
